A study of Ovis aries with 2 samples.

Results

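Sheep chromosome 11 was followed through every locus that the deposited tables place on it with a span, end minus start, of 200 bp or more. These were 1521 of the 34927 loci listed for a thin-tailed sheep library and 1612 of the 36511 listed for a fat-tailed one. The chromosome was selected on the ratio of the libraries, since its median had stood above that of most chromosomes in earlier results from these values. Its ratios are therefore described without a test.

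Both libraries were made from poly(A) RNA of subcutaneous fat of Iranian native sheep, untreated, weaned at 90 days, fed alike for 120 days and slaughtered at 7 months. Each tail type had 1 library, and the sources used here do not say whether it came from 1 animal or a pool. The tail type was read from the sample titles, and since the title word Fat could also name the tissue, the direction of all ratios below depends on that reading. The growth protocol also holds a sentence about chickens, so the labels may in part describe other work. In bulk tissue, fewer cells of a type and less RNA per cell cannot be told apart.

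Subcutaneous fat stores energy as triglyceride, and its adipocytes can make fatty acids from acetyl-CoA. In the RefSeq gene table of another sheep assembly (ARS-UI_Ramb_v3.0), chromosome 11 carries 1740 genes, 1178 of them protein-coding. Among these are ACLY, which makes cytosolic acetyl-CoA, ACACA, which turns it into malonyl-CoA, FASN, which builds the fatty acid chain, and SREBF1, a transcription factor that drives such genes. The chromosome also carries COL1A1, a chain of type I collagen, PECAM1, a marker of endothelium, CD68, a marker of macrophages, and MYH1, a myosin of fast muscle. None of the 523 distinct Ensembl identifiers on chromosome 11 occurred in that table and no source used here gives the genome build of the FPKM files, so no locus could be tied to any of these genes. The tissue label could not be checked against marker genes for the same reason, and loci are named by their deposited positions, counted from 1.

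Chromosome 11 loci were detected somewhat more often than loci elsewhere, and those above 0 had a higher median level. FPKM, the number of fragments relative to transcript length and library size, reached 1 or more at 67.0% of its loci in the thin-tailed library, against 61.3% of loci on other chromosomes, and at 66.9% against 60.3% in the fat-tailed library. The median locus above 0 had 7.32 FPKM (quartiles 2.37 and 24.2) in the thin-tailed library and 6.84 (2.44 and 20.1) in the fat-tailed one. Elsewhere these medians were 4.73 and 5.18 FPKM. The share of the total went the other way. Chromosome 11 held 4.92% of thin-tailed and 4.96% of fat-tailed rows of 200 bp or more, but 3.75% and 3.51% of their FPKM. A level of 100 FPKM or more was listed for 94 and 92 loci, and 1000 or more for 13 and 11. The signal was concentrated in few loci, since the 8 highest held 46.9% of the FPKM of the thin-tailed members and 53.1% of the fat-tailed ones.

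The members were a mixture of assembled loci and annotated ones, and most annotated ones carried no signal. Among thin-tailed members 1094 were assembled and 427 had an Ensembl identifier, of which 303 were listed at 0. The fat-tailed table held 1141 assembled members and 471 with an identifier, 315 of them at 0. Of the assembled members only 49 and 51 were at 0. Rows under 200 bp, 176 and 175 on this chromosome, were left out, and 4 and 3 of them had a value above 0. The shortest members spanned 214 bp, and the longest rows left out spanned 196 and 192 bp, the former at 456 FPKM in the thin-tailed table and the latter at 0 in the fat-tailed one.

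Members were matched by position, because the tables name assembled loci separately. A pair was formed when each locus was the best partner of the other and the shared stretch covered at least 80% of both, which paired 1218 members of either table, 80.1% of those listed thin-tailed and 75.6% of those listed fat-tailed. Of these pairs 585 had identical ends, 301 were at 0 in both libraries, and 459 stayed below 1 FPKM in both. The remaining 759 pairs were compared. The last pair inside the overlap threshold (start 25957508, overlap 80.1%) read 2.13 FPKM thin-tailed and 2.34 fat-tailed, and the first outside it (start 35427101, 79.97%) read 12.5 and 16.1. At the level threshold, the last pair inside (start 4816455) reached 1.01 FPKM and the first outside (start 49714298) 0.993.

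On the compared loci, higher and lower values in the fat-tailed library were nearly balanced. On the scale log2((fat-tailed FPKM + 1)/(thin-tailed FPKM + 1)), which understates the ratios of low values, 89 loci stood at 1 or above, counted as 2-fold higher, and 98 at -1 or below, counted as 2-fold lower. That is 11.7% and 12.9% of the 759 loci. Over all 13030 loci compared in the series the shares were 8.22% higher and 14.7% lower. The median log2 ratio was -0.03 (quartiles -0.54 and 0.51) on chromosome 11 and -0.12 (-0.64 and 0.35) on the other chromosomes. The contrast chose the chromosome, so nothing is read from the distance between these values. With 1 library per tail type no difference has a replicate check.

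**Figure D1:**
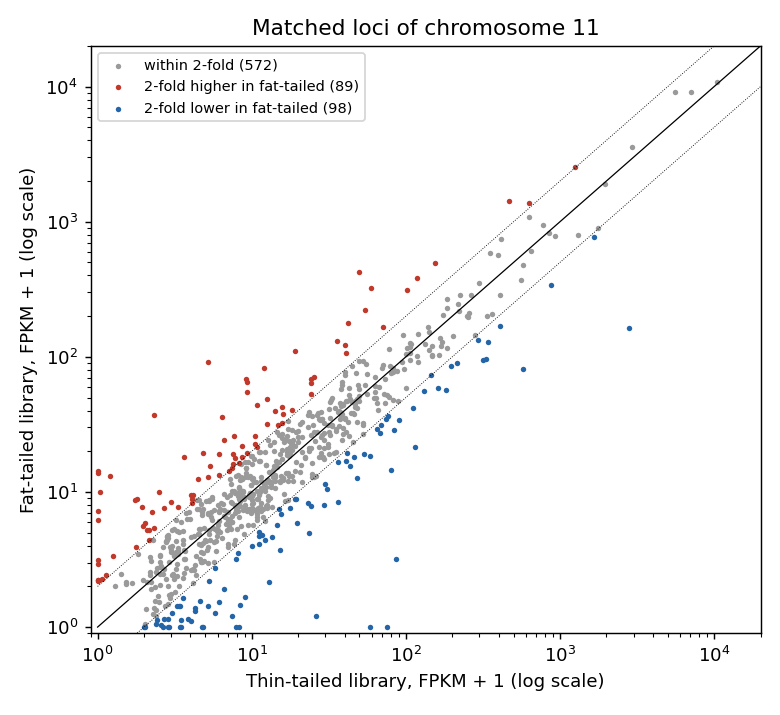
Level of each of the 759 compared loci of chromosome 11, as FPKM + 1 in the thin-tailed library (x axis) and the fat-tailed library (y axis), both on log scales. The solid line marks equal values and the dotted lines 2-fold. Between the dotted lines lie 572 loci, with 89 above and 98 below. Both kinds occur at low and high levels. By mean level, the share of higher calls was 11.2% to 12.5% in every quintile. The share of lower calls was uneven, at 21.1% in the lowest quintile, 7.95% to 9.21% in the next 3 and 17.1% in the highest. Loci of other chromosomes at these levels had 21.3% lower calls in the lowest quintile and 14.4% in the highest, with smaller shares between them.

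The intervals of the libraries did not overlap at 185 loci with higher and 213 with lower fat-tailed values, or 24.4% and 28.1%, where all compared loci of the series gave 19.3% and 31.2%. Of the 2-fold calls, 85 of 89 higher loci and 93 of 98 lower ones had intervals apart, 95.5% and 94.9%, close to the 92.8% and 92.9% of all such calls in the series. These intervals describe the estimate within a library and not the spread between animals. Larger differences were rarer: 24 loci were 4-fold higher and 20 were 4-fold lower, and 7 and 6 passed 8-fold. At 4-fold these are 3.16% and 2.64% of the loci, where all compared loci gave 2.02% and 3.68%, and at 8-fold 0.922% and 0.791%, against 0.622% and 0.906%.

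The depth behind a value can be gauged from its interval. The number of fragments that counting error alone would need to give the deposited interval, the square of 2 FPKM over its upper half-width, was computed for both libraries at 80 higher and 85 lower loci. The other 9 higher loci were listed at 0 in the thin-tailed library and the other 13 lower ones at 0 in the fat-tailed library, and a value of 0 may reflect an estimate that failed. These implied fragments differed in the direction of the FPKM at 60 of 80 higher loci and 74 of 85 lower ones, and by at least 2-fold at 36 and 61. The shares with the same direction, 75% and 87.1%, were close to the 72.0% and 89.0% of all such calls in the series. Among called loci with identical ends and values above 0 in both tables, they did so at 8 of 13 higher and 12 of 13 lower loci. Since they are derived from the deposited FPKM and its interval, implied fragments are no independent evidence. Nor were they scaled for library depth. Their median log2 ratio over all compared loci of the series was -0.17.

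Among the 27 chromosomes with at least 100 compared loci, chromosome 11 ranked first by the share of 2-fold higher loci, just ahead of chromosome 18 at 11.7% (37 of 317), and ranked 25 by the share of lower loci. Under other settings its place by higher loci varied between the first and rank 4, and its place by median, rank 2, between rank 2 and rank 8. Higher loci made up 47.6% of its calls, against 35.1% on the other chromosomes. Chromosome 14, the only one with a higher median (0.01), had fewer calls both ways, with 9.26% of 680 loci higher and 11.6% lower. The quartiles of chromosomes 11 and 14 ran from -0.54 to 0.51 and from -0.42 to 0.43. Differences between chromosomes were not tested.

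**Figure D2:**
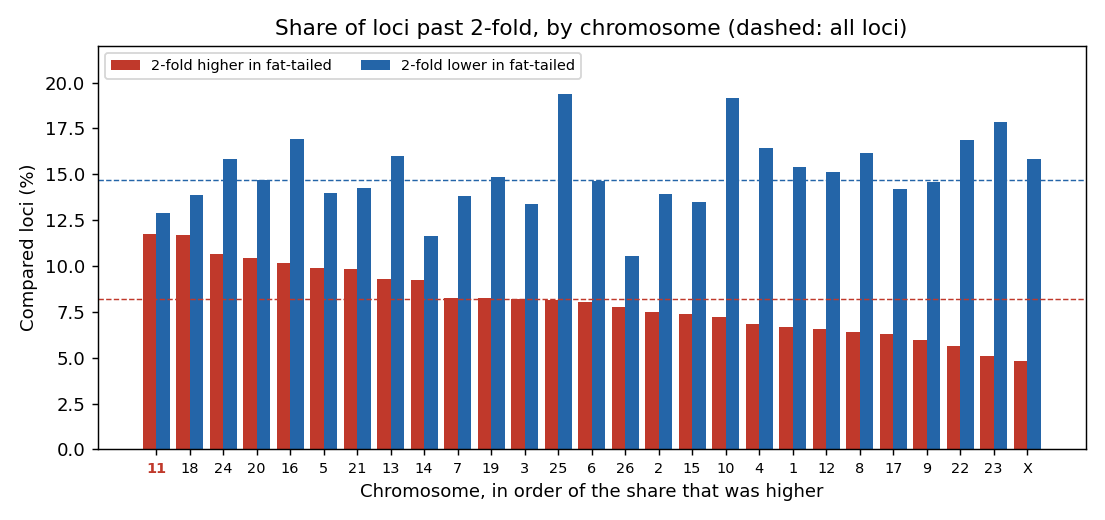
Share of compared loci that were 2-fold higher (red) and 2-fold lower (blue) in the fat-tailed library on each of 27 chromosomes, in order of the higher share, with dashed lines at the shares over all loci (8.22% and 14.7%). Chromosome 11, at the left, has 11.7% higher and 12.9% lower; chromosome X, at the right, has 4.84% and 15.8%.

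Higher calls were more common among loci that overlap another locus of the same table. Of 272 such pairs, 45 (16.5%) were 2-fold higher and 37 (13.6%) lower, while the 487 pairs that overlap no other held 44 higher (9.03%) and 61 lower (12.5%). On other chromosomes the higher share was 9.83% with overlap and 6.94% without. The tables give no strand, and loci that overlap could share fragments. The part of such sharing in the ratios was not tested.

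The kind of name moved with the ratio. In the 31 pairs with an Ensembl identifier in the fat-tailed table only, 14 were 2-fold lower and 0 higher, with a median log2 ratio of -0.96. In the 17 pairs with an identifier in the thin-tailed table only, 2 were higher and 0 lower, with a median of 0.48. By the median ratio, the library whose table carried the identifier thus tended to have the lower value, here as elsewhere. The 17 pairs are few, and their median levels, 13.0 FPKM thin-tailed and 8.64 fat-tailed, went the other way. Their share of higher loci, 11.8%, was close to the 11.7% of the whole chromosome. Other chromosomes gave a median of -0.999 for the first kind, with 49.7% lower and 1.84% higher against 45.2% and 0% here. For the second kind they gave 0.39, with 27.0% higher and 7.07% lower against 11.8% and 0% here. The 671 pairs assembled in both tables had a median of 0.02, with 81 higher and 77 lower, and the 40 pairs with an identifier in both had a median of -0.22, with 6 higher and 7 lower.

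Along the chromosome, median levels varied by more than 2-fold between steps, while median ratios stayed close to 0. In 5 Mb steps by the midpoint of the pair, 12 of 13 steps held at least 20 compared loci, and the first, 0 to 5 Mb, held 5. Over the 12 steps the median level ran from 6.59 to 15.5 FPKM for the thin-tailed library and from 6.16 to 16.0 for the other. The step from 15 to 20 Mb was the lowest in both libraries, at 6.59 and 6.16 FPKM. The step from 50 to 55 Mb was the highest in the thin-tailed library (15.5 FPKM, against 14.2 in the fat-tailed), and the step from 55 to 60 Mb in the fat-tailed library (16.0, against 11.7). Median levels differed most between the libraries from 5 to 10 Mb, at 9.24 FPKM thin-tailed and 15.8 fat-tailed over 34 loci. The paired loci did not show a difference of that size. Their median log2 ratio was 0.15, and 0.016 for the 25 that overlap no other locus. By implied fragments it was -0.24, where all compared loci of the series gave -0.17.

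Step medians of the log2 ratio lay on both sides of 0. The medians of 6 of the 12 steps lay above 0 and of 6 below. That tally depended on the setting. By implied fragments, which are not scaled for depth and had a median of -0.17 over all loci, 1 of 12 lay above 0. The tally was 10 of 12 when ratios were centred on the median of all loci, which shifts every value up by 0.12. The highest was 0.17 from 45 to 50 Mb (quartiles -0.71 and 0.72, 63 loci, 10 higher and 10 lower), which turned to -0.085 at a reciprocal overlap of 0.95 or a span minimum of 1000 bp and to -0.21 by implied fragments. The median was 0.17 also from 55 to 60 Mb (36 loci, 3 higher and 5 lower). The lowest were -0.18 from 10 to 15 Mb (61 loci, 5 higher and 11 lower) and -0.17 from 25 to 30 Mb (94 loci, 7 higher and 8 lower). In each of these the spread of the loci was several times the median.

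Every step held calls in both directions. Higher loci outnumbered lower ones in 3 of the 12 steps, 5 to 10 Mb (6 and 4), 20 to 25 Mb (10 and 6) and 30 to 35 Mb (10 and 8). Lower ones outnumbered higher ones in 8 steps, and the numbers were equal in 1. Lower calls were also the more common over all 13030 loci compared in the series, 14.7% against 8.22% higher. No pattern along the chromosome is read from the step counts. The most calls fell between 40 and 45 Mb, the step with the most loci, at 14 higher and 16 lower of 104. The 5 loci from 0 to 5 Mb gave 2 higher and 1 lower, and in that step 13 of the 19 members of either table were listed at 0.

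**Figure D3:**
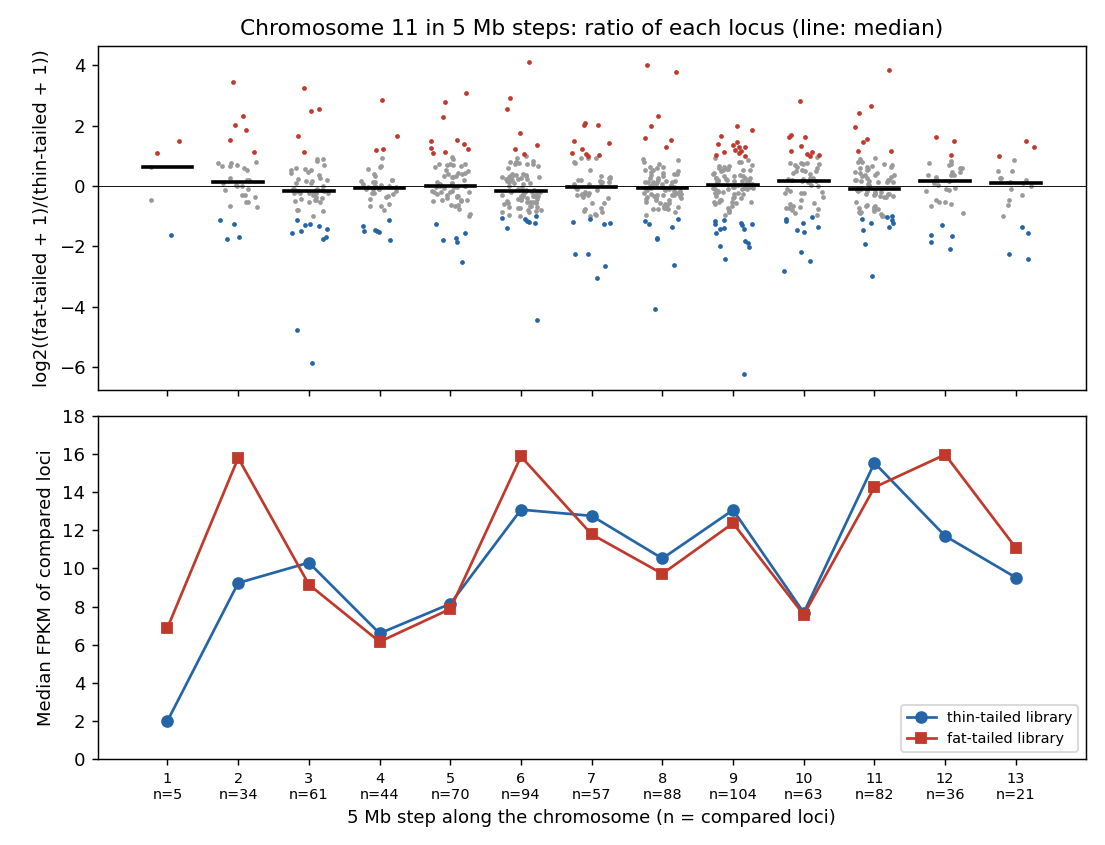
Chromosome 11 in 13 consecutive 5 Mb steps. The upper panel gives the log2 ratio of each compared locus (red, 2-fold higher in the fat-tailed library; blue, 2-fold lower; grey, within 2-fold) with the median as a line, and the lower panel the median FPKM in each library: step medians of the ratio stay near 0 while median levels range from 6.16 to 16.0 FPKM beyond the first step, which holds 5 loci.

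Neighbouring loci were called in opposite directions 23 times and in the same direction 18 times. These counts were not set against other chromosomes or against the call shares of 11.7% higher and 12.9% lower. No pattern along the chromosome is read from them. Of 696 consecutive compared pairs that do not overlap, with a median gap of 14780.5 bp, both neighbours were higher in 10 and both lower in 8, and in 23 the neighbours went opposite ways. The Spearman correlation of the ratios of neighbours was -0.07 across these pairs, which share libraries and, through chains of neighbours, loci. The closest opposite neighbours, picked after their values were seen, lay 304, 324 and 567 bp apart. At the first, the locus at 42230196 to 42244609 read 5.18 FPKM (3.89 to 6.46) thin-tailed and 0.545 (0.261 to 0.829) fat-tailed, while the next one, from 42244923 to 42267441, read 23.4 (21.7 to 25.1) and 62.7 (58.5 to 66.9). At the second, the locus from 22371305 to 22374210 went from 5.65 FPKM (3.96 to 7.35) thin-tailed to 0.906 (0.253 to 1.56) fat-tailed, and the one from 22374535 to 22406279 from 10.9 (10.2 to 11.7) to 81.8 (73.4 to 90.2). By FPKM the library with the higher value changed at both places from one locus to the next. By implied fragments it changed at the first (65 and 15, then 738 and 902) and not at the second (44 and 8, then 876 and 379). The third place, from 9022935 to 9047592, also kept its direction by fragments, with 48 and 18, then 327 and 89. The tables do not say whether such neighbours belong to 1 transcription unit.

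Longer loci tended to have lower ratios on chromosome 11, as they did elsewhere. The first quintile of compared loci, 214 to 1993 bp, had a median log2 ratio of 0.15 (15 higher and 13 lower of 152). The longest quintile, 27590 to 593314 bp, had -0.19 (20 higher and 28 lower of 152). Between them the medians were 0.05, -0.06 and -0.01, so the fall was not steady. Calls of both kinds were more common in the longest quintile, at 13.2% higher and 18.4% lower, than in the first, at 9.87% and 8.55%. The Spearman correlation of ratio and span was -0.12 across the 759 loci and -0.19 across the loci elsewhere. The correlation on chromosome 11 was -0.051 with a filter of 5 FPKM and -0.072 with a span minimum of 1000 bp. The share of higher loci was lowest in the third quintile (6825 to 13604 bp), at 5.96%, beside 8.76% elsewhere, and highest in the fourth (13604 to 27590 bp), at 16.4%, beside 7.56% elsewhere. The median span of the compared loci was 9931.5 bp here and 12839 bp elsewhere.

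**Figure D4:**
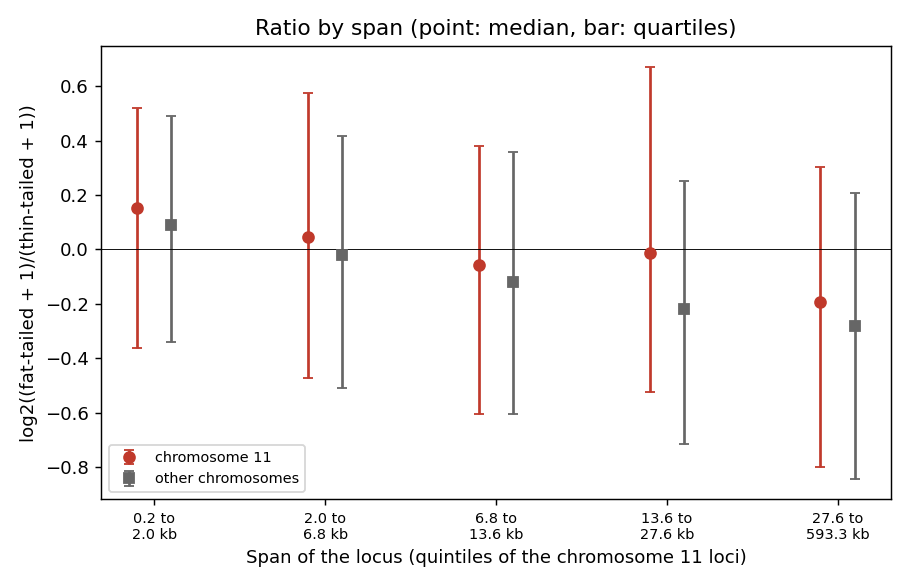
Median log2 ratio (points) and quartiles (bars) of compared loci by span, in quintiles of the chromosome 11 loci, for chromosome 11 (red circles) and other chromosomes (grey squares). Both medians are lower in the longest than in the shortest quintile, -0.19 against 0.15 on chromosome 11 and -0.28 against 0.09 elsewhere. On chromosome 11 the fall is not steady, with -0.06 in the third quintile and -0.01 in the fourth. The quartile bars overlap throughout.

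Level and span were related weakly. The middle quintile by span had the highest thin-tailed median (15.7 FPKM), and the second quintile the highest fat-tailed one (18.2). The Spearman correlation of span with level was -0.11 with the thin-tailed level and -0.15 with the fat-tailed one. By mean level, the lowest quintile of loci (mean of both libraries 0.505 to 3.40 FPKM) had a median ratio of -0.22 with 17 higher (11.2%) and 32 lower (21.1%), where loci elsewhere at these levels gave 7.21% and 21.3%. The next 3 quintiles had more higher than lower loci, 53 against 40 in all, with 11.2% to 11.9% higher against 7.14% to 9.88% elsewhere. The highest quintile, from 43.8 FPKM up, had 19 higher and 26 lower loci, 12.5% and 17.1%, against 8.92% and 14.4% elsewhere. These shares come from the contrast that chose the chromosome and support nothing.

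Of the 8 most abundant loci of at least 1000 bp, 5 differed by less than 2-fold between the libraries and 3 by more. The 8 highest by mean FPKM, among loci of at least 1000 bp, began with a locus at 19771126 to 19774188, which read 10434 FPKM (10092 to 10776) thin-tailed and 10869 (10457 to 11281) fat-tailed. Its intervals overlapped, and 3 short annotated loci of 68 to 71 bp, listed at 0 in both tables, overlap it. The locus at 42498733 to 42499925 read 1967 FPKM (1881 to 2052) and 1891 (1809 to 1972), also with intervals that overlap. The deposited precision thus separates the libraries at neither of them. The 1000 bp minimum left out abundant shorter loci, of which some are named here after their values were seen. That at 56151620 to 56152593 read 7092.5 FPKM thin-tailed and 9074 fat-tailed. That at 46369865 to 46370164 read 1250 and 2522, 2.02-fold higher.

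Intervals were apart at the other 6 of the 8 loci. The locus at 39016458 to 39020292 read 5539 FPKM (5433 to 5644) thin-tailed and 9194 (8840 to 9548) fat-tailed, and that at 27540709 to 27545996 read 2932 (2795 to 3069) and 3556 (3396 to 3716). Both were higher in the fat-tailed library by less than 2-fold, 1.66-fold and 1.21-fold. In the fat-tailed table alone, the first of them lies inside a locus of 297461 bp (38974737 to 39272197) at 6820 FPKM, and its implied fragments went the other way, 10989 thin-tailed and 2695 fat-tailed. The locus at 26714158 to 26715173 read 1762 FPKM (1605 to 1919) thin-tailed and 890.4 (819 to 962) fat-tailed, a 1.98-fold difference, with 502 and 623 implied fragments.

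Of these 8 loci, 3 passed 2-fold. Which ones pass depends on the scaling near the threshold: centred on the median of all loci, that at 32806309 stood at a log2 ratio of -0.97, and with equal FPKM totals that at 26714158 stood at -1.02. The locus at 35776035 to 35807792 read 2783 FPKM (2602 to 2964) thin-tailed and 163 (155 to 172) fat-tailed, 17.0-fold lower. Its implied fragments ran the opposite way, at 948 and 1523, so its FPKM and fragment numbers disagree on the direction. Inside it lie a locus at 1.03 FPKM in the thin-tailed table and loci at 4.90 and 23.4 FPKM in the fat-tailed one. A locus at 32806309 to 32808164 read 1650 FPKM (1583 to 1717) thin-tailed and 774 (739 to 808) fat-tailed, 2.13-fold lower, on 2431 and 2063 implied fragments. The locus at 39832387 to 39838397 read 467 FPKM (443 to 490.5) thin-tailed and 1423 (1377 to 1469) fat-tailed, 3.05-fold higher, and 2.49-fold by fragments. The thin-tailed table lists a second locus across its start, 39832131 to 39834338, at 1731 FPKM, and the fat-tailed table lists none there. The part of that second locus in the difference was not tested.

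The leading locus of each 5 Mb step, the highest by mean FPKM among loci of at least 1000 bp, differed by less than 2-fold in 10 of the 13 steps. Of all compared loci, 75.4% on chromosome 11 and 77.1% in the series were within 2-fold, so this is no trait of leading loci. The 3 other leading loci, between 30 and 35 Mb and from 45 to 55 Mb, were lower in the fat-tailed library. From 49940186 to 49956407 the level was 573 FPKM (553 to 593) thin-tailed and 80.9 (77.2 to 84.6) fat-tailed, 7.08-fold by FPKM, against 1.73-fold in implied fragments. A further thin-tailed locus at 662 FPKM (49955732 to 49957610) overlaps its end, the fat-tailed table lists none across that end, and its part in the difference was not tested. The locus at 50420600 to 50423455 stood at 868 FPKM (836 to 901) thin-tailed and at 339 (320.2 to 358) in the other, 2.56-fold by FPKM and 2.17-fold by fragments, with no other locus across it. The third is the locus at 32806309 described above.

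Several of the leading loci within 2-fold had intervals that overlap. From 60597331 to 60616009, in the last step, the level was 262 FPKM (247 to 277) thin-tailed and 287 (271 to 303) fat-tailed. From 7371510 to 7393674 it was 131 (123 to 140) and 123 (116 to 130). The deposited intervals of both overlapped, as they did at 5 of the 13 leading loci. From 3676595 to 3679649 the level was 28.3 FPKM (26.4 to 30.2) and 20.1 (18.5 to 21.7), the lowest of the 13, with intervals apart. The locus at 14021615 to 14026742 read 923 (820 to 1025) and 788 (705 to 871), the one at 20719581 to 20721806 read 394 (376 to 412) and 562 (537 to 587), and the one at 55286750 to 55295187 read 556 (496 to 615) and 370.2 (337 to 404), thin-tailed first. The intervals of the last 2 were also apart, in opposite directions.

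The highest ratios were sought among 183 loci of at least 1000 bp that had 5 FPKM or more in 1 library, values above 0 in both, intervals apart and no overlapping locus. Of these 29 were 2-fold higher and 37 were 2-fold lower in the fat-tailed library, and the 6 at either end are described. The selection required a difference, so these values show the range and not how often loci differed. From 35726535 to 35750603 the level was 1.34 FPKM (0.882 to 1.79) thin-tailed and 36.3 (29.5 to 43.1) fat-tailed, 27.2-fold higher, and 3.26-fold by fragments (35 and 113). From 14439872 to 14465104 it was 0.0401 FPKM (0 to 0.120) and 8.99 (4.84 to 13.1). The lower value rests on 1 implied fragment, so only the level of the fat-tailed library, on 19 fragments, is well above 0.

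At 3 of the 6 highest ratios the implied fragments ran against the FPKM. The locus at 48103026 to 48141956 read 8.31 FPKM (7.34 to 9.27) thin-tailed and 64.7 (53.2 to 76.2) fat-tailed, 7.79-fold higher by FPKM, on 298 and 127 fragments. That from 22374535 to 22406279 was 7.47-fold higher by FPKM, on 876 and 379 fragments. Between 12886982 and 12998334 the level was 18.1 FPKM (15.8 to 20.4) thin-tailed and 110.0 (87.6 to 132.5) fat-tailed, a ratio of 6.08, on 254 and 96 fragments. All 3 had identical ends in both tables. At these loci FPKM and implied fragments differed in direction, and the cause was not tested. The sixth, from 12376240 to 12382352, read 5.38 (4.57 to 6.19) and 34.9 (29.9 to 39.9), on 177 and 195 fragments.

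At all 6 of the lowest ratios the fragments went the same way as the FPKM. The locus at 26321704 to 26329040, whose fat-tailed row ends at 26328096 and carries the identifier ENSOARG00000008480, read 25.1 FPKM on 521 fragments thin-tailed and 0.201 on 3 fragments fat-tailed. From 33294290 to 33335860 the level was 6.47 FPKM (5.46 to 7.47) and 0.203 (0 to 0.406), on 165 and 4 fragments. From 24102731 to 24124671 it was 7.37 (6.15 to 8.59) and 0.463 (0 to 0.926), on 146 and 4 fragments. These 3 fat-tailed values had intervals reaching 0, so their ratios have no upper end and are not given.

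The other lowest ratios lay between 42 and 45 Mb, inside the step with the most compared loci (104, with 14 higher and 16 lower). From 44336595 to 44356974 the level was 8.04 FPKM (6.27 to 9.82) thin-tailed and 0.684 (0.293 to 1.07) fat-tailed, 11.8-fold lower. From 44209697 to 44230229 it was 14.3 (11.6 to 16.9) and 2.74 (1.83 to 3.65), 5.21-fold lower. The locus from 42230196, given above, was 9.50-fold lower, and 4.40-fold by fragments (65 and 15). In 3 of the 6 pairs the fat-tailed row carried an Ensembl identifier and the thin-tailed row was assembled, with shared stretches of 82.6% to 98.5%.

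**Figure D5:**
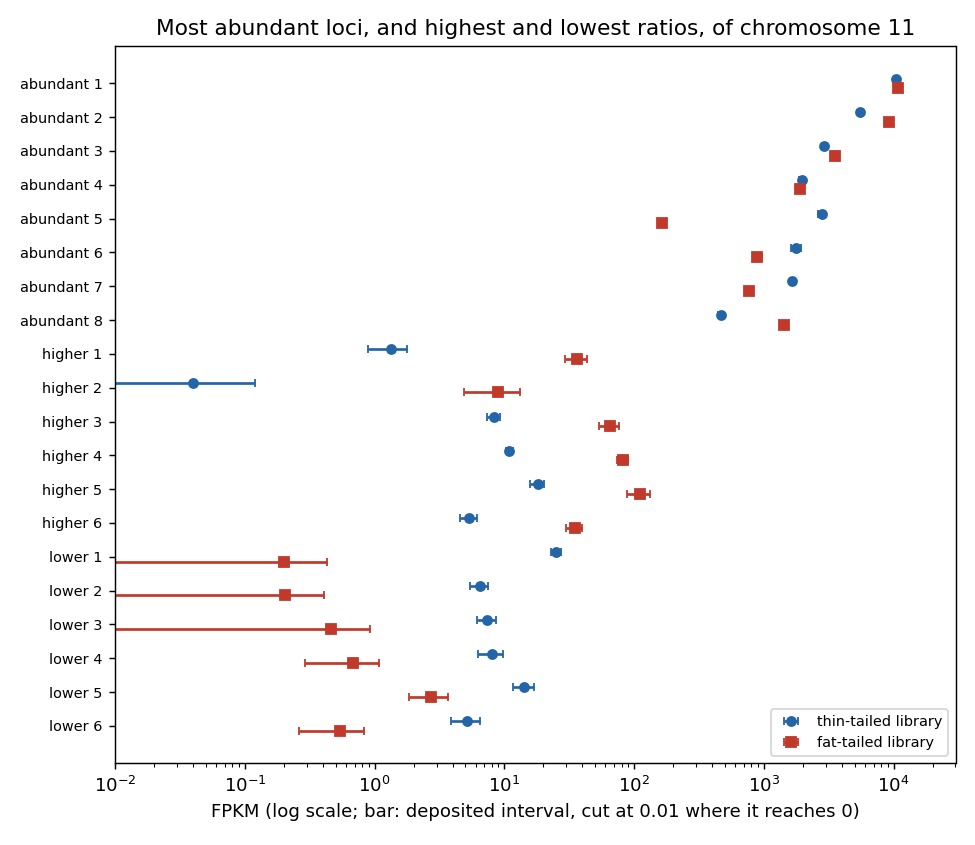
FPKM (log scale) of the 8 most abundant loci of at least 1000 bp and of the 6 highest and 6 lowest ratios of chromosome 11. Loci run from top to bottom in the order of their ranks. Blue circles give the thin-tailed and red squares the fat-tailed library. The deposited interval is a bar, drawn from 0.01 where it reaches 0. The abundant loci lie between 163 and 10869 FPKM, while the 6 lowest ratios rest on fat-tailed values from 0.201 to 2.74.

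The ends of the FPKM + 1 scale over all compared loci lay outside that selection, at loci named after their values were seen. The highest on that scale was at 26430144 to 26432635, with 4.20 FPKM (3.25 to 5.15) thin-tailed and 89.9 (80.5 to 99.3) fat-tailed, a log2 ratio of 4.13, on 79 and 369 fragments, although its plain FPKM ratio of 21.4 is below the 27.2 of the locus from 35726535. The lowest were at 40250021 to 40260382, with 74.3 FPKM (65.4 to 83.1) thin-tailed, and at 13017336 to 13019244, with 57.8 (52.9 to 62.7), both listed at 0 in the fat-tailed table. All 3 overlap another locus of at least 1 table. Because a 0 can be a failed estimate, no ratio is given for the last 2.

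Some members lay outside the comparison although they were abundant. Those that overlapped a locus of the other table without forming a pair numbered 269 thin-tailed and 314 fat-tailed, and 17 and 16 of them reached 100 FPKM. The highest thin-tailed one was a locus of 433 bp (7611394 to 7611826) at 6431 FPKM (5841 to 7022). At another place the assemblies split the sequence differently. In the thin-tailed table a locus at 39268522 to 39272121 stood at 4796 FPKM (4635 to 4957), while the fat-tailed table held a single locus from 38974737 to 39272197 at 6820 (6581 to 7060), which overlaps 10 thin-tailed loci. Levels of such loci cannot be compared, since they cover different sequence.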

How the data were processed

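Poly(A) RNA of subcutaneous fat was extracted with TRIzol and sequenced on Illumina instruments, per the labels' protocols. The authors deposited FPKM per locus with a lower and an upper bound, in the format of a Cufflinks tracking table, per the file headers. FastQC, TopHat and Cuffdiff are named, without versions, per the submitters' processing notes. No source used here gives the build, the annotation or any scaling between libraries, and the total depth is unknown. The median member above 0 rested on 84.9 implied fragments thin-tailed and 67.4 fat-tailed, with interval half-widths of 21.7% and 24.4% of the FPKM. Starts in the tables count from 0 and were raised by 1.

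Loci were paired over all chromosomes among rows of at least 200 bp, and 73 tied pairs were dropped. Matching and calling were tried on simulated tables of loci that overlap no other, with slightly shortened ends and planted 4-fold changes. That setting is simpler than the data, and it cannot check loci that overlap, split or merge. No test was made, as each group had 1 library. Chromosome 11 and the way of matching were chosen with earlier results of these data known. Loci named in the text were the 8 highest by mean FPKM, the 6 highest and lowest ratios under the stated conditions and the leading locus of each 5 Mb step; exceptions are marked. Of the 26 marker and lipid genes listed, 8 are on chromosome 11 in the RefSeq table and none could be measured. Alternatives changed the pseudocount, level filter, overlap, span, overlapping loci, zeros, scaling, centring, fold, steps and use of implied fragments. Python 3.11.15, pandas 2.3.3 and scipy 1.17.1 were used.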

Additional observations from a re-analysis of the deposited data

Results flagged for a closer look

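Signal was present at loci that entered no comparison because no locus of 200 bp or more in the other table overlapped them. On chromosome 11 these were 34 thin-tailed and 80 fat-tailed loci, all with deposited intervals above 0, or 2.24% and 4.96% of the members. On other chromosomes the shares were 3.94% and 4.38%. They were short and low, with median spans of 873.5 and 725.5 bp and median levels of 2.10 FPKM (quartiles 1.52 and 3.12) and 3.08 (1.99 and 4.75). None carried an Ensembl identifier, and 2 and 5 of them reached 10 FPKM. The highest were a thin-tailed locus of 247 bp (15575162 to 15575408) at 50.6 FPKM (23.6 to 77.6) and a fat-tailed one of 252 bp (42683301 to 42683552) at 27.6 (9.79 to 45.5). A locus missing from a table is not shown to be silent in that library.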

How the results depend on the processing

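No paired analysis was possible because both groups held a single library, so that no pair could be fitted, and no library could be left out. The 89 higher and 98 lower loci became 50 and 49 with 5 FPKM added in place of 1, 44 and 61 for loci that overlap no other, and 24 and 20 at 4-fold; the last 2 select fewer loci by construction. By implied fragments the median log2 ratio was -0.14 and its distance from other loci went from 0.093 to 0.027; the cause was not tested. Centred on the median of all loci the median was 0.088, by construction. The chromosome was chosen on these ratios, so the sign of that distance under other settings supports nothing. By implied fragments 37.2% of calls were higher, against 47.6% by FPKM. That is 9.09% of loci higher and 15.3% lower by fragments. Over all loci of the series the shares were 7.11% and 16.7% by fragments, and 8.22% and 14.7% by FPKM. Of the 17 named loci past 2-fold, implied fragments reversed 4, at log2 ratios of 0.68 (start 35776035), -1.23 (48103026), -1.21 (22374535) and -1.41 (12886982). Of the 11 named loci within 2-fold, 7 changed sign, the furthest from 0.73 to -2.03 (39016458). The medians of 12 steps of 5 Mb lay above 0 in 1 to 10 steps over the settings, and at a reciprocal overlap of 0.95 the highest was 0.54, from 5 to 10 Mb. The correlation of ratio and span ranged from -0.17 to -0.051. Leaving out pairs with an Ensembl identifier in 1 table only was added after the data were seen.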
